A study of Mus musculus with 3 samples.

Results

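The vacuolar proton pump (V-ATPase) genes described here are the 10 mouse genes Atp6v0a1, Atp6v0a2, Tcirg1, Atp6v0b, Atp6v0c, Atp6v0d1, Atp6v0d2, Atp6v0e, Atp6ap1 and Atp6ap2, which encode subunits of the membrane sector (V0) and the accessory subunits. They were chosen by name, and each transcript of the mRNA table was assigned to them by its gene symbol in GENCODE M21. All 10 were listed, out of 15844 genes in the table, through 54 of their 67 annotated transcripts. The one that stood apart was Atp6v0d2, a d subunit gene known as a marker of osteoclasts and needed for the fusion of their precursors, with 187 reads in BMM-ABs against 873 in pOC-ABs and 2338 in mOC-ABs. Tcirg1, the a subunit gene whose loss causes osteopetrosis, stayed within 2-fold between the 3 libraries as a gene sum, lowest in pOC-ABs. Its reads were assigned to transcripts with different starts.

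The libraries were made from apoptotic bodies (ABs), the membrane-bound fragments that dying cells shed, of C57BL/6 mouse cells, with 1 library for each of 3 conditions. Bone marrow macrophages (BMMs) were grown from the marrow of mice aged 11 weeks with M-CSF at 50 ng/mL for 72 h and gave BMM-ABs. Preosteoclasts (pOCs) had RANKL at 100 ng/mL with M-CSF at 30 ng/mL for 24 h, and mature osteoclasts (mOCs) for 72 h or more, per the labels. For all 3 conditions the labels give alendronate at 500 μM for 12 h as the inducer of apoptosis, whereas the methods of the study give staurosporine. Those methods also give a longer time with RANKL for mOCs, more M-CSF beside RANKL and a shorter time with M-CSF for BMMs. The sample titles name cells and the design of the series names ABs, and ABs is what they are called here. Nothing says how many animals or cultures went into a library. With 1 library per condition no spread between samples is known, so no test of the conditions was made. Each interval of a ratio or share is a 95% Clopper-Pearson interval. Each interval of an FPKM level is a 95% exact Poisson interval of the gene reads. Both kinds cover counting error only.

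V-ATPases pump protons into endosomes and lysosomes and, in the osteoclast, across the ruffled border onto the bone surface, where the acid dissolves mineral. A peripheral V1 sector hydrolyses ATP and turns a ring of c subunits in the membrane against the a subunit, which carries the proton path. The d subunit joins the ring to the central stalk, and the accessory proteins Atp6ap1 and Atp6ap2 take part in assembly.

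The mRNA table held 9100082 reads for BMM-ABs, 7387317 for pOC-ABs and 7705592 for mOC-ABs, the order kept below wherever 3 values follow each other. On the CPM scale, reads per 1000000 reads of the table, 3 reads, the floor used for a bound, are 0.330, 0.406 and 0.389. Markers of macrophages summed to 2603, 1430 and 1384 CPM over 6 genes, with Mertk at 0 reads in BMM-ABs. Of 8 osteoclast markers 7 were listed, and they summed to 42.4, 87.6 and 469 CPM, with Itgb3 at 0 in mOC-ABs, Oscar at 0 in BMM-ABs and no rows for Calcr. None of the 5 neutrophil and 5 erythroid markers had rows, and the B cell, T cell, stromal, endothelial and megakaryocyte lists summed to at most 4.93 CPM.

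The levels of the 10 genes were compared per length, as the sum of FPKM over the transcripts of a gene, where FPKM is a read count per transcript length, scaled to the mRNA table. In BMM-ABs, 5 genes lay between 135 and 177 FPKM, namely Tcirg1, Atp6v0b, Atp6v0e, Atp6v0d1 and Atp6v0c, which encode a, c″, e, d and c subunits. Below them came Atp6ap1 at 41.7, Atp6ap2 at 16.9, Atp6v0a2 at 14.4, Atp6v0a1 at 13.5 and Atp6v0d2 at 8.59 FPKM. In mOC-ABs, Atp6v0d2 had joined the upper group at 139 FPKM and Atp6v0e was first at 228. Atp6v0a1 and Atp6v0a2 were the lowest there, at 7.63 and 11.2 FPKM. The sums also hold transcripts not annotated as protein-coding, and the orders depend on them. In BMM-ABs the retained introns ENSMUST00000131327 of Tcirg1 and ENSMUST00000152356 of Atp6v0b gave 30.7 and 42.4 FPKM. In pOC-ABs the decay target ENSMUST00000122885 gave 51.2 of the 157 FPKM of Tcirg1. Several neighbours in these orders had overlapping counting intervals. In BMM-ABs these were Tcirg1 and Atp6v0b, Atp6v0b and Atp6v0e, Atp6v0d1 and Atp6v0c, and the neighbours among Atp6ap2, Atp6v0a2 and Atp6v0a1. In pOC-ABs they were Tcirg1 and Atp6v0e, Atp6v0e and Atp6v0d1, and Atp6v0a2 and Atp6v0a1. In mOC-ABs the neighbours from Atp6v0c through Tcirg1, Atp6v0d1 and Atp6v0b to Atp6v0d2 overlapped, so the order within each neighbouring pair is not resolved. Genes further apart in that chain can be separate. The interval of Atp6v0d2 (133 to 145 FPKM) lay below that of Atp6v0d1 (156 to 171 FPKM).

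**Figure D1:**
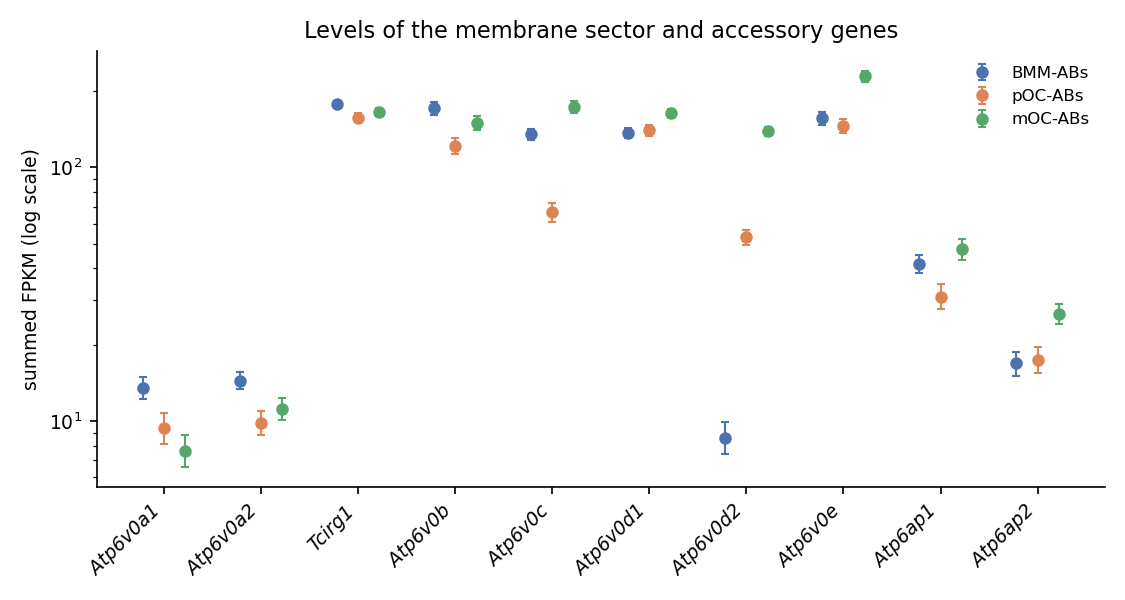
Summed FPKM (log axis) of each of the 10 genes in the 3 libraries, coloured by condition, with bars for the 95% counting interval. Atp6v0d2 goes from 8.59 to 139 FPKM between BMM-ABs and mOC-ABs, and the other 9 genes keep within a narrower range.

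The d position holds the gene that differed most. Atp6v0d2 (ENSMUSG00000028238, chromosome 4, 19876841 to 19922605, GRCm38, minus strand) had 20.5, 118 and 303 CPM. The ratio was 5.75 (95% interval 4.91 to 6.77) for pOC-ABs over BMM-ABs, 14.8 (12.7 to 17.2) for mOC-ABs over BMM-ABs and 2.57 (2.37 to 2.78) for mOC-ABs over pOC-ABs. Among the 12702 genes with at least 20 reads over the libraries, 78, 64 and 261 genes had a higher ratio in these comparisons, which share libraries and are not independent. Its full-length transcript ENSMUST00000029900 held 98.9%, 97.6% and 97.2% of its reads. The ubiquitous paralog Atp6v0d1 had 1972, 1657 and 2043 reads, or 217, 224 and 265 CPM. Its log2 ratio was 0.05 (-0.05 to 0.14) for pOC-ABs over BMM-ABs, an interval that holds 0, and -0.15 when scaled to the mRNA and lncRNA tables together. For mOC-ABs over BMM-ABs it was 0.29 (0.20 to 0.38).

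Atp6v0d2 therefore took a larger part of the d subunit reads in each RANKL library. Its share of the reads of both d genes was 8.66% (7.51 to 9.93) for BMM-ABs, 34.5% (32.7 to 36.4) for pOC-ABs and 53.4% (51.9 to 54.9) for mOC-ABs. Per length, as shares of summed FPKM, the values were 5.93%, 27.5% and 46.0%, so whether Atp6v0d2 or Atp6v0d1 leads in mOC-ABs depends on the scale. The summed level of both d genes was 145, 193 and 302 FPKM. In the same libraries the sum of the osteoclast markers was higher and that of the macrophage markers lower, and their part in the result was not tested. These sums rest on a few genes. Acp5 and Ctsk gave 280 and 130 of the 469 CPM in mOC-ABs, and Itgb3 had 6, 3 and 0 reads. The macrophage marker Cd68 had 729, 649 and 656 CPM, and Mertk had 0, 2 and 5 reads. In a pool of ABs, more ABs from one kind of cell and more RNA of a gene in each AB cannot be told apart.

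The genes with the pattern most like that of Atp6v0d2 were sought among 9146 protein-coding genes with at least 200 reads and reads in every library, by the distance between the pairs of log2 ratios against BMM-ABs. The nearest were Serpinb6b at a distance of 0.11 with 29, 146 and 365 reads, Dmpk at 0.16 with 45, 225 and 517 reads, Vegfc at 0.36 with 10, 59 and 137 reads, Celsr1 at 0.68 with 20, 77 and 163 reads and Bdh2 at 0.83 with 16, 44 and 161 reads. These points rest on 3 libraries and are a description. With Atp6v0d2 counted in, 19 of 9147 such genes were past 2-fold higher both from BMM-ABs to pOC-ABs and from pOC-ABs to mOC-ABs, and 8 of the 9147 had a larger ratio of mOC-ABs over BMM-ABs. Acp5, the tartrate-resistant acid phosphatase of osteoclasts, was among the 19, with 88, 292 and 2157 reads.

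The a position was held mostly by Tcirg1, which encodes the a3 isoform that reaches the ruffled border. Tcirg1 (ENSMUSG00000001750, chromosome 19, 3896050 to 3907133, minus strand) had 3890, 2316 and 3041 reads, or 427, 314 and 395 CPM. Its log2 ratio was -0.45 (-0.52 to -0.37) for pOC-ABs over BMM-ABs and 0.33 (0.25 to 0.41) for mOC-ABs over pOC-ABs. Under the alternatives described below these ran from -0.65 to -0.18 and from 0.08 to 0.69. Their signs held, but their sizes are less certain than the counting intervals show. For mOC-ABs over BMM-ABs the log2 ratio was -0.12 (-0.18 to -0.05), and 0.12 over protein-coding transcripts alone, so that difference has no settled direction. Its share of the reads of the 3 a genes was 79.3%, 81.0% and 84.1%, and of their summed FPKM 86.4%, 89.1% and 89.8%. Atp6v0a1, the a1 gene best known from neurons, had 392, 210 and 186 reads, and the log2 ratio of mOC-ABs over BMM-ABs was -0.84 (-1.10 to -0.58). Atp6v0a2, the a2 gene known from Golgi and endosomes, had 626, 333 and 389 reads, and that ratio was -0.45 (-0.63 to -0.26). For pOC-ABs over BMM-ABs the values were -0.60 for Atp6v0a1 and -0.61 for Atp6v0a2, and neither gene passed the 2-fold limit in any comparison. Atp6v0a4, the a4 gene known from the kidney, had no rows.

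**Figure D2:**
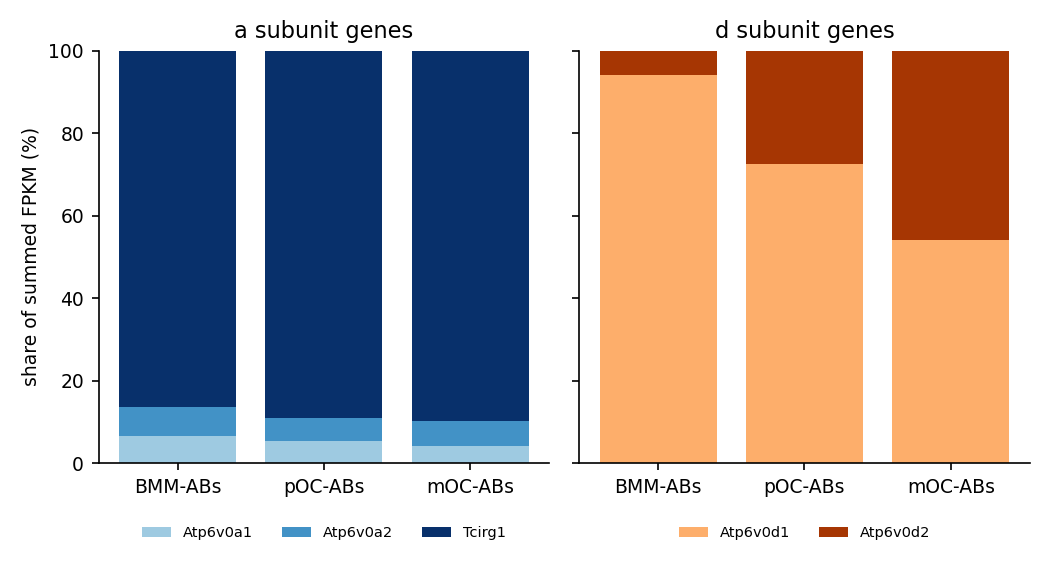
Share of the summed FPKM (%) of the 3 a subunit genes and the 2 d subunit genes in each library, 1 library per bar. The share of Tcirg1 stays between 86.4% and 89.8%, and that of Atp6v0d2 goes from 5.93% to 27.5% and 46.0%.

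Below the level of the gene, the reads of Tcirg1 lay on transcripts with different annotated starts. The starts were grouped after their values had been seen. Of the 12 listed transcripts, 4 start at the upstream end of the gene, between 3906991 and 3907133, and held 2737, 695 and 1105 reads. They made up 70.4% (68.9 to 71.8), 30.0% (28.1 to 31.9) and 36.3% (34.6 to 38.1) of the Tcirg1 reads. ENSMUST00000145791, the only one that starts at 3905230, 1903 bases downstream of the outermost start, held 374, 947 and 1595 reads. Its share was 9.61% (8.71 to 10.6), 40.9% (38.9 to 42.9) and 52.4% (50.7 to 54.2), lowest where the upstream group was highest. Scaled to the library, it was 3.12-fold higher in pOC-ABs and 5.04-fold higher in mOC-ABs than in BMM-ABs. The other 7 start inside the gene and held 779, 674 and 341 reads.

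ENSMUST00000145791 has the same coding sequence as ENSMUST00000001801, which starts at 3907133. The coding sequence is 2502 bases, and 19 of the 20 exons of each have the same ends. They differ in the outermost exon, which in ENSMUST00000145791 is 156 bases long (3905075 to 3905230) and overlaps no exon of another Tcirg1 transcript. The table gives reads per transcript and not per exon, and reads that fit several transcripts were divided by an estimate, so the intervals of these shares leave out that uncertainty. A change of share as large as that of Tcirg1, 42.8 percentage points, lay at percentile 88.0 of the 5216 genes compared this way, where the median was 11.4 points. The RefSeq windows used here (GRCm38.p6) hold 3 starts of Tcirg1, at 3907133, 3906983 and 3905230. The second lies beside the annotated start of ENSMUST00000126070, at 3906991. All 3 are shown, from 250 bases before the start, with the 20 bases from the start on in capitals, because they lie in front of the upstream group and of ENSMUST00000145791. The first and the second overlap.
Tcirg1 upstream start, outer, chr19:3907114-3907383, minus strand: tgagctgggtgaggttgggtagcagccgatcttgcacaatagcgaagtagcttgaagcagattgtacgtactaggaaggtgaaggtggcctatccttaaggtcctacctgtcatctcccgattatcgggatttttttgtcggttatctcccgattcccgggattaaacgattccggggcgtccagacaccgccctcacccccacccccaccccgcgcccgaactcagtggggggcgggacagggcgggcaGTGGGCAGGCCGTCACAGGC
Tcirg1 upstream start, inner, chr19:3906964-3907233, minus strand: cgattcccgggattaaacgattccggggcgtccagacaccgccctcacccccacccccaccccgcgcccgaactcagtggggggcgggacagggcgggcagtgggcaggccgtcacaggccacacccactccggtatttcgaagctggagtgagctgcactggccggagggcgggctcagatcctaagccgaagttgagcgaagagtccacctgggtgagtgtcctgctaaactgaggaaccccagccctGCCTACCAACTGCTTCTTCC
Tcirg1 downstream start, chr19:3905211-3905480, minus strand: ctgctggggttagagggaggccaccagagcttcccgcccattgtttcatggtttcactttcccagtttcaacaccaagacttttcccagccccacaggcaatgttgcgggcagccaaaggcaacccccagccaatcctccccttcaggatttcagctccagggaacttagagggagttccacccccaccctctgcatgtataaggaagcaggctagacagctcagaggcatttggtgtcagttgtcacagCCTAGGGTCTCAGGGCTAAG

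**Figure D3:**
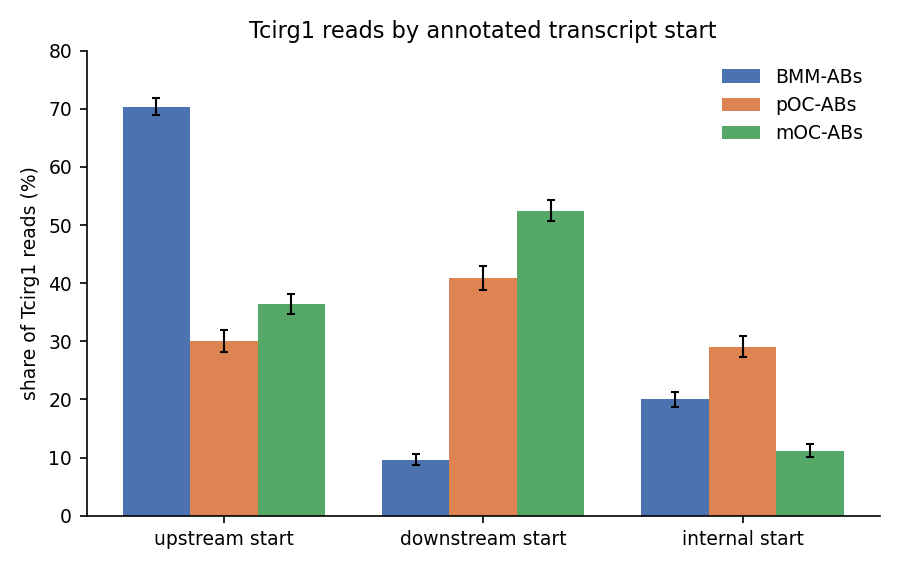
Share of Tcirg1 reads (%) on transcripts grouped by annotated start, with 95% counting intervals, 1 library per bar. The upstream group holds 70.4% in BMM-ABs, and the transcript with the downstream start holds 40.9% in pOC-ABs and 52.4% in mOC-ABs.

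Further Tcirg1 transcripts differed between libraries. ENSMUST00000126070, a protein-coding transcript of the upstream group, had 1712, 302 and 637 reads, which were 44.0%, 13.0% and 20.9% of the gene. ENSMUST00000122885, annotated as a target of nonsense-mediated decay with an incomplete start, had 0 reads for BMM-ABs but 466 for pOC-ABs and 11 for mOC-ABs. Against the floor of 3 reads per library it was at least 191-fold higher in pOC-ABs than in BMM-ABs, a bound that leaves out counting error. The counting interval of the log2 ratio starts at 7.28. The retained intron ENSMUST00000131327 held 656, 152 and 239 reads, or 16.9%, 6.56% and 7.86%. Each of these 3 values depends on how shared reads were divided.

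The c ring genes are Atp6v0b, which encodes the c″ subunit, and Atp6v0c, which encodes the proteolipid c subunit. Atp6v0b had 1288, 746 and 986 reads. Its log2 ratio was -0.49 (-0.62 to -0.36) for pOC-ABs over BMM-ABs and 0.34 (0.20 to 0.48) for mOC-ABs over pOC-ABs. Atp6v0c had 1395, 503 and 1369 reads and was lowest in pOC-ABs. Its ratio was 2.25-fold lower in pOC-ABs than in BMM-ABs (log2 -1.17, -1.32 to -1.02) and 2.61-fold higher in mOC-ABs than in pOC-ABs (log2 1.38, 1.24 to 1.53). Those values are uncertain. The processed pseudogene Atp6v0c-ps2 on chromosome 6 matches the transcript of Atp6v0c at 99.8% over 465 bases, the length of the coding sequence, and was listed with 2118, 1556 and 2269 reads. With Atp6v0c-ps2 and Atp6v0c-ps1 added, the reads were 3514, 2059 and 3640 and the log2 ratios -0.47 for pOC-ABs over BMM-ABs, 0.29 for mOC-ABs over BMM-ABs and 0.76 for mOC-ABs over pOC-ABs, none past the 2-fold limit. Within Atp6v0c, the noncoding transcript ENSMUST00000151061 held 17.5%, 4.57% and 6.50% of the reads.

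Atp6v0e, which encodes the small e subunit of the membrane sector, had 1155, 871 and 1407 reads. Its log2 ratio was -0.11 (-0.23 to 0.02) for pOC-ABs over BMM-ABs, 0.52 (0.41 to 0.64) for mOC-ABs over BMM-ABs and 0.63 (0.51 to 0.75) for mOC-ABs over pOC-ABs. It was highest in mOC-ABs. Its paralog Atp6v0e2 was lower in both RANKL libraries, with 275, 155 and 172 reads.

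The accessory subunit genes did not move alike. Atp6ap1 had 570, 300 and 448 reads, and pOC-ABs over BMM-ABs gave a log2 ratio of -0.63 (-0.83 to -0.42). For mOC-ABs over BMM-ABs it was -0.11 (-0.29 to 0.07), and 0.19 from summed FPKM. Atp6ap2, the (pro)renin receptor gene, had 338, 284 and 468 reads. Its log2 ratio was 0.05 (-0.18 to 0.28) for pOC-ABs over BMM-ABs, or -0.15 when scaled to both tables, and 0.71 (0.50 to 0.92) for mOC-ABs over BMM-ABs. For mOC-ABs over pOC-ABs both genes were higher, with 0.52 for Atp6ap1 and 0.66 for Atp6ap2. Within Atp6ap1, the retained intron transcript ENSMUST00000135914 made up 19.1%, 12.3% and 5.58% of reads, and ENSMUST00000147900, whose annotated 3′ end is incomplete, 10.4%, 23.3% and 30.4%. ENSMUST00000198382 of Atp6v0a2, annotated as a decay target, held 3.99%, 4.80% and 13.4%, on 25, 16 and 52 reads.

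Counted together, 1 of the 10 genes was past 2-fold higher (Atp6v0d2) and 1 past 2-fold lower (Atp6v0c) in pOC-ABs than in BMM-ABs, where 10.9% of the 12702 genes were past 2-fold in either direction, 4.87% higher and 6.07% lower. In mOC-ABs against BMM-ABs, 1 was higher (Atp6v0d2) and none lower, against a background of 13.1%, with 4.16% higher and 8.99% lower. In mOC-ABs against pOC-ABs, 2 were higher (Atp6v0c and Atp6v0d2) and none lower, against 10.3%, with 3.5% higher and 6.83% lower. At a limit of 1.5-fold, pOC-ABs over BMM-ABs had 1 of the 10 genes higher and 4 lower (13.9% and 15.6% of all genes, 29.5% together), mOC-ABs over BMM-ABs 2 higher and 1 lower (10.3% and 19.5%, 29.8% together) and mOC-ABs over pOC-ABs 4 higher and none lower (8.75% and 15.3%, 24% together). Apart from Atp6v0d2 and the uncertain Atp6v0c, the 10 genes were within 2-fold in all comparisons. Of all genes past 2-fold in the comparison of pOC-ABs with BMM-ABs, 44.5% were higher, and this split was 27.0% when scaled to the mRNA and lncRNA tables together and 55.2% when scaled to protein-coding genes. The median log2 ratio of the 10 genes was -0.47 for pOC-ABs over BMM-ABs, with 3 of 10 above 0, and 0.05 for mOC-ABs over BMM-ABs, with 5 of 10 above 0. For mOC-ABs over pOC-ABs it was 0.43, with 9 of 10 above 0 and Atp6v0a1 below. The medians of all 12702 genes were -0.02, -0.05 and -0.05. Scaling to the mRNA and lncRNA tables together moved the median of all genes for pOC-ABs over BMM-ABs to -0.22.

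**Figure D4:**
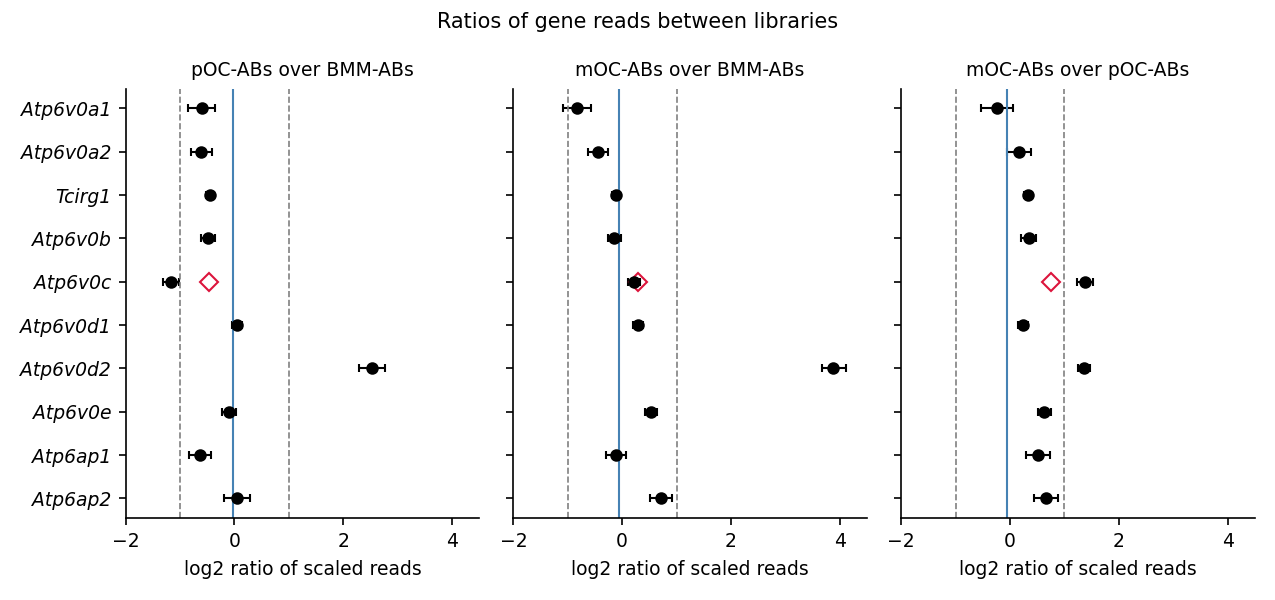
Log2 ratio of scaled reads for each of the 10 genes in the 3 comparisons, with 95% counting intervals, 1 library per condition. Dashed lines mark 2-fold, the blue line the median of all 12702 genes, and open diamonds Atp6v0c with its pseudogene copies added, which brings it inside 2-fold.

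The 10 genes summed to 1298, 1096 and 1645 CPM, a log2 ratio of 0.34 (0.31 to 0.38) for mOC-ABs over BMM-ABs. Without Atp6v0d2 the sums were 1278, 977 and 1341 CPM, and that ratio was 0.07 (0.03 to 0.11). For pOC-ABs over BMM-ABs the log2 ratio of the sum was -0.24, and -0.39 without Atp6v0d2. The V1 sector genes, 9 of 13 of which were listed, summed to 1511, 2053 and 2877 CPM, with log2 ratios of 0.44 for pOC-ABs and 0.93 for mOC-ABs over BMM-ABs. Their median log2 ratios were 0.49 and 0.67, with 8 of 9 above 0 in each of these comparisons, and 0.14 for mOC-ABs over pOC-ABs, with 7 of 9 above 0. None was past 2-fold in pOC-ABs. In mOC-ABs over BMM-ABs, Atp6v1a and Atp6v1b2, the catalytic A and the B2 subunit genes, were past it at 1.01 and 1.46, which is 2 of 9 genes beside the 4.16% of all genes that were higher. Atp6v1a sat at the limit (2.01-fold, 1.94 to 2.08), and the count was 1 when scaled to the mRNA and lncRNA tables together or taken from summed FPKM, with or without a pseudocount of 1. Over protein-coding transcripts alone, 3 V1 genes were past 2-fold higher and 1 past 2-fold lower in that comparison. The difference between the sectors was not tested, as there is 1 library per condition. Atp6v1b1, Atp6v1c2, Atp6v1e2 and Atp6v1g3 had no rows.

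**Figure D5:**
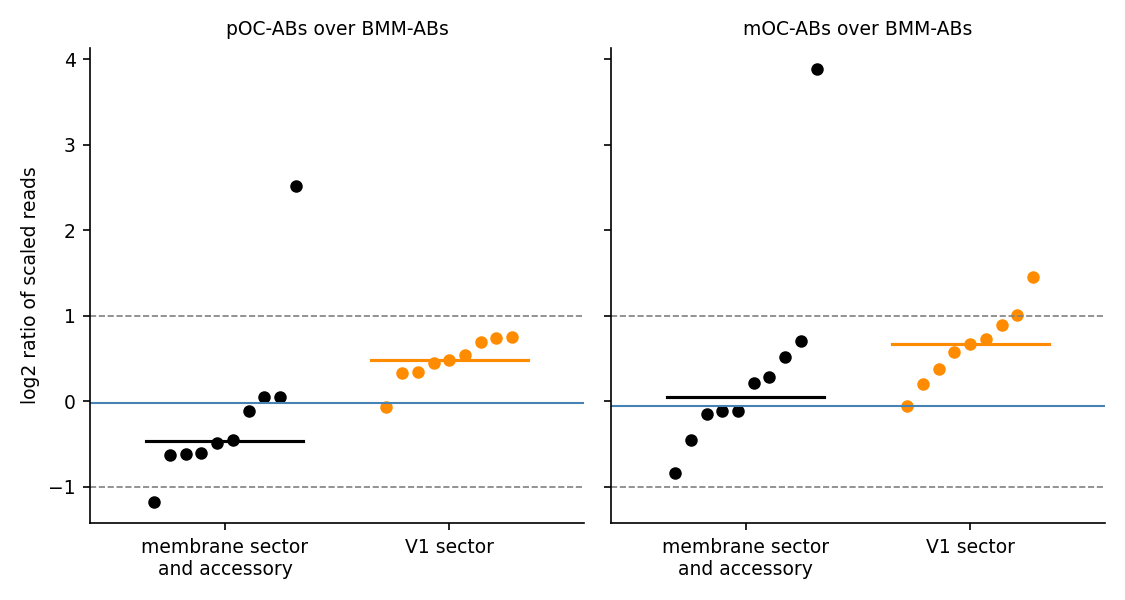
Log2 ratio of scaled reads of the 10 membrane sector and accessory genes (black) and the 9 listed V1 genes (orange) for pOC-ABs and mOC-ABs over BMM-ABs, 1 point per gene. Bars are medians (-0.47 and 0.05 against 0.49 and 0.67), the blue line the median of all genes, and dashed lines 2-fold.

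Of 8 assembly and regulation genes, 1 was past 2-fold higher in each RANKL library over BMM-ABs, against 4.87% and 4.16% of all genes, and this was the same gene. Dmxl1, which encodes a rabconnectin that promotes joining of the sectors, had 1562, 2599 and 4792 reads, with log2 ratios of 1.04 (0.94 to 1.13) for pOC-ABs and 1.86 (1.77 to 1.94) for mOC-ABs over BMM-ABs. Scaled to both tables, the count in pOC-ABs was 0. The median of the 8 was -0.11, 0.05 and 0.07 in the 3 comparisons. Of the 15 resorption partners, 13 had at least 20 reads, of which 3 were past 2-fold higher in pOC-ABs and 8 in mOC-ABs over BMM-ABs, and none lower, again beside 4.87% and 4.16% higher among all genes. The 3 were Acp5, Mmp9 and Oscar, the last with 0, 7 and 49 reads, where the counting interval for pOC-ABs over BMM-ABs starts at 1.78-fold, and the 8 also held Dcstamp, Ocstamp, Car2, Ctsk and Nfatc1. The count of 3 came to 1 with a minimum of 200 reads or from FPKM with a pseudocount of 1, and 1 gene was past 2-fold lower in pOC-ABs when scaled to both tables. Ctsk, the collagen-degrading cathepsin K, had 180, 171 and 1001 reads, and Mmp9, a gelatinase, 8, 17 and 107. Clcn7 and Ostm1, which encode the chloride transporter that works beside the pump and its partner, had 777, 366 and 587 and 322, 162 and 200 reads, and were within 2-fold in each comparison. Itgb3 had 6, 3 and 0 reads, too few for a ratio. Among the 4 MiT/TFE factors, which activate lysosomal genes, Tfeb had 545, 225 and 223 reads. Its log2 ratio was -1.05 (-1.28 to -0.82) in mOC-ABs over BMM-ABs, an interval that holds the 2-fold limit. This is 1 of 4 genes, beside the 8.99% of all genes that were lower. Mitf, Tfe3 and Tfec were within 2-fold.

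By transcript class, protein-coding transcripts held 84.0%, 86.2% and 93.0% of the reads of the 10 genes. Over the whole mRNA table the shares were 81.2%, 77.7% and 80.5%. That whole also holds classes that the 10 genes lack, such as processed pseudogenes with 7.25%, 8.40% and 8.92% of its reads. The shares are therefore of unlike wholes and do not show whether the 10 genes lie above or below other protein-coding genes. Retained introns held 10.1%, 5.34% and 4.23% of the reads of the 10 genes, and 5.23%, 4.21% and 3.85% over the table. Atp6v0d2 and Atp6v0e had reads on protein-coding transcripts only. In 4 genes a single main transcript, with at least 10% of the reads of its gene, led throughout. Besides Atp6v0d2 these were Atp6v0d1 (ENSMUST00000013304, 98.9% to 99.9% of reads), Atp6v0e (ENSMUST00000015719, 96.9% to 99.0%) and Atp6ap2 (ENSMUST00000033313, 97.6% to 99.6%). Atp6v0a1 was led by ENSMUST00000092663 with 83.2%, 75.2% and 83.9%, and its noncoding ENSMUST00000154896 had 9.69%, 13.3% and 7.53% on 38, 28 and 14 reads. Atp6v0a2 was led by ENSMUST00000037865 with 91.5%, 85.0% and 81.2%. In Tcirg1, ENSMUST00000001801 held 17.0%, 11.2% and 9.90%. Atp6v0b was divided between ENSMUST00000036380 with 34.9%, 42.8% and 39.8%, ENSMUST00000150204 with 36.3%, 28.7% and 37.3%, and the retained intron ENSMUST00000152356 with 16.8%, 14.1% and 12.1%. In Atp6v0c, ENSMUST00000024932 held 58.4%, 68.2% and 59.3% and ENSMUST00000098862 21.2%, 20.1% and 31.8%. The leading transcript of Atp6ap1 was ENSMUST00000019231 with 67.0%, 62.7% and 61.4%. The lncRNA table listed 13 transcripts at the loci of these genes with 181, 102 and 108 reads together, with no strand given. NONMMUT054509.2 lies over its full 945 bases in exon sequence of Atp6v0a2, with 32, 27 and 53 reads, and cannot be told apart from that gene. Others overlap no exon of these genes, such as NONMMUT066963.2 at Atp6v0d1 with 46, 8 and 15 reads. There, reads from introns of the gene cannot be told apart from the lncRNA. The only circRNA was a junction in Atp6ap2 with 0, 2 and 0 reads.

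Promoter windows from 250 bases before to 50 bases after a start were matched by symbol for 8 of the 10 genes in the RefSeq table used here, as 12 windows, and those of Atp6v0d2 and Atp6v0a2 were not analysed here. The E-box CACGTG was present in 3 of the 8 (Atp6v0b, Atp6v0d1 and Atp6v0e) and in 8.09% of the 27025 genes with a window, searched on both strands. Per window this was 3 of 12 against 7.15% of 32851. The longer TCACGTGA, which holds CACGTG within it, was present in Atp6v0d1 and Atp6v0e and in 1.12% of genes. The CLEAR motif, TGACTCA and GAGGAAGT, in 0.370%, 5.95% and 3.69% of genes, were in none of the 8. For Atp6v0a1 the window holds a RefSeq start at 101010398. Its leading transcript ENSMUST00000092663 is annotated to start at 101011821, outside that window, so that start was not searched. Every CLEAR match holds TCACGTGA. These windows are shown for the 3 genes with a match, up to 20 bases after the start, with the matches in capitals. A match of letters is no measure of binding.
Atp6v0b, chr4:117887310-117887579, minus strand: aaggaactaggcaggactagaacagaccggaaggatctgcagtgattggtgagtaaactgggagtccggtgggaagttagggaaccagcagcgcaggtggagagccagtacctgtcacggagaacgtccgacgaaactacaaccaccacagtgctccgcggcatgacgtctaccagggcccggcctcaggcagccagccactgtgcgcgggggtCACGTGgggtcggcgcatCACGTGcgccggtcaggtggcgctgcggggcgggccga
Atp6v0d1, chr8:105566045-105566314, minus strand: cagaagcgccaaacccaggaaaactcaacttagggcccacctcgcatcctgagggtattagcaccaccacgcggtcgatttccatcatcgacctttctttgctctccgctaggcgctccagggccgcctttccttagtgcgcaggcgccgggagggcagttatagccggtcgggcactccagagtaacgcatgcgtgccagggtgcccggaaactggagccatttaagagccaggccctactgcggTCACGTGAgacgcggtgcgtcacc
Atp6v0e, chr17:26676146-26676415, plus strand: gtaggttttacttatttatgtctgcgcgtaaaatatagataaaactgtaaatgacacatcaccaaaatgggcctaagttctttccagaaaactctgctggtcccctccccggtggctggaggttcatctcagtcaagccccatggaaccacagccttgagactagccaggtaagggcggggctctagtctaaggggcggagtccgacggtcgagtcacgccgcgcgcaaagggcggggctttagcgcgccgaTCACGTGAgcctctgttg
The log2 ratios of these 3 genes for mOC-ABs over BMM-ABs were -0.15, 0.29 and 0.52.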

How the data were processed

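RNA of ABs from 3 conditions was sequenced in 1 paired-end library each after poly-A selection. The authors deposited read counts (count) and FPKM per transcript for mRNAs and lncRNAs, and for circRNAs junction read counts with a score, SRPBM, that was not used. FastQC, HISAT2, StringTie and GRCm38 are named in the submitters' processing notes, and the counting tool is not given in the sources used here. Recomputed from counts and GENCODE M21 lengths, FPKM agreed within 1% for 98.3% to 98.4% of transcripts.

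Of 56651 mRNA transcripts, 56422 were assigned to genes by GENCODE M21, and 229 with no gene, 0.129% to 0.152% of reads, were left in the totals only. Counts were summed per gene and scaled to the mRNA table total. FPKM levels carry 95% exact Poisson intervals of the gene reads. Ratios carry 95% Clopper-Pearson intervals, whose code was run on simulated Poisson counts with known folds. That simulation holds counting error only and no division of reads between transcripts, so it does not test the intervals for these libraries. PCR reads carry no molecular identifiers, so intervals and floors (3 reads) cover counting error only. A gene was called past 2-fold at a ratio above 2 or below 0.5, and genes with at least 20 reads formed the background. With 1 library per condition no p-value was computed. Named were all 10 genes, all transcripts with at least 10% of a gene's reads and 20 reads in a library, and genes of fixed lists. The members and lists were chosen with earlier results of these data known. Alternatives were other scalings, fold limits, read minimums, summed FPKM (pseudocount 1), protein-coding transcripts and, added after seeing the data, near-identical copies (blastn 2.17.0, 95% identity over 200 bases). Protein identity was not compared, since no protein sequences were used here. Python 3.11.15, pandas 2.3.3 and scipy 1.17.1 were used.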

Additional observations from a re-analysis of the deposited data

How the results depend on the processing

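No paired analysis was possible because there is 1 library per condition, and for the same reason no library could be left out. Atp6v0d2 kept its direction and stayed past 2-fold in all 3 comparisons under every alternative, with log2 ratios of 2.32 to 2.63, 3.78 to 4.02 and 1.32 to 1.46. With the limit at 1.5-fold, 4 genes were lower in pOC-ABs and 1 in mOC-ABs against BMM-ABs, and 2 were higher in mOC-ABs against BMM-ABs and 4 against pOC-ABs, where 29.5%, 29.8% and 24% of all genes passed it in either direction. With near-identical copies added, the genes lower in pOC-ABs against BMM-ABs came to 0 and those higher in mOC-ABs against pOC-ABs to 1, through Atp6v0c. Scaled to the mRNA and lncRNA tables together, the median for pOC-ABs over BMM-ABs was -0.67, with 1 gene above 0. The median for mOC-ABs over BMM-ABs was 0.23 from summed FPKM, 0.22 with a pseudocount of 1 and 0.21 over protein-coding transcripts, which moved that for mOC-ABs over pOC-ABs to 0.62. The cause of the moves of the medians was not tested. The sign was not kept for Atp6ap1 and Tcirg1 in mOC-ABs over BMM-ABs, nor for Atp6ap2 and Atp6v0d1 in pOC-ABs over BMM-ABs, and no other sign among the 30 log2 ratios changed. The intervals hold counting error only, and Atp6v0d2 in BMM-ABs, with 187 reads, is the thinnest base of a large ratio.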
